A study of Mus musculus with 16 samples.

Results

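Silica instillation was accompanied by higher mRNA of the genes that carry cells through mitosis in whole mouse lung. The set described here holds 40 listed genes of mitosis and chromosome segregation, taken by symbol from probe sets that carry 1 gene symbol, with the probe set of highest mean level kept for each gene. Of these, 39 were measured among the 19938 genes of the arrays. Ccnb1 was not analysed here. At day 2 after crystalline silica, 38 of the 39 genes were higher than in vehicle-treated lungs (8.03% of all genes were), with a median of 1.34 on the log2 scale. At day 60, in lungs with a tumor allele, Mki67 and Top2a passed the same test (3.35% of all genes did) and the median difference was 0.63. The count there depended on the fit, from 0 to 22 genes. The day 2 count also depended on the fit, and it fell most with the BLT1-/- pool left out, where BLT1+/+ lungs alone carry the contrast.

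The samples were 16 arrays of total lung RNA from C57BL/6 mice labelled as 10-12 weeks of age and kept specific pathogen free. The trachea of each mouse received crystalline silica (CS), a mineral dust that inflames the lung, or PBS, its saline vehicle. At day 2 the genotypes were BLT1+/+ and BLT1-/-, where BLT1 is the leukotriene B4 receptor that attracts neutrophils, and at day 60 they were BLT1+/+KRasLA1 and BLT1-/-KRasLA1. KRasLA1 is a latent oncogenic allele that spontaneous recombination switches on in single cells, which gives lung tumors. There were 4 CS groups of 3 lungs, called biological replicates in the labels and numbered here as there. The 4 PBS groups are 1 array each, of pooled RNA from 3 mice. Animal numbers are absent, so the p-values cover the spread among these samples alone, some of it perhaps technical. All day 60 lungs carry KRasLA1 and no day 2 lung does, so day and allele cannot be told apart. Because whole lung was measured, a change in the share of dividing cells and a change in the mRNA of each cell cannot be told apart either.

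Mitosis begins when cyclin-dependent kinase 1, bound to a cyclin, and the Polo-like and Aurora kinases are active. Condensin complexes and topoisomerase then compact and untangle the chromosomes, kinetochores tie them to spindle microtubules, and motor proteins build and align the spindle. The anaphase-promoting complex marks cyclins for destruction so that chromatids separate, and an actin ring then divides the cell. Few cells of an adult lung divide at rest, and both lung-resident cells and leukocytes can enter the cycle after an injury. Most of these genes are transcribed in G2 and M phase. A promoter element named the cell cycle genes homology region (CHR), bound by the MuvB complexes DREAM and B-MYB-MuvB, often with a CCAAT box bound by NF-Y, is known for that timing.

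Promoter windows show what the members share outside their expression. RefSeq (GRCm38.p6) windows of 300 bases, from 250 before to 50 after the transcription start, were matched by symbol for 33 of the 39 measured genes (35 windows, since Ect2 and Prc1 have 2 each). Aurkb, Ccna2, Kif20a, Smc4, Spc24 and Tpx2 had no window. The 5 windows shown belong to genes among the 10 with the smallest p at day 2, of condensin and chromosome structure (Ncapg2, Top2a) and of the kinases (Cdk1, Plk1, Melk), and were picked to span the motif content, with Melk as a window that holds neither motif. Each runs 5′ to 3′ on the gene's own strand, and capitals mark TTTGAA or TTTAAA (CHR) and CCAAT, on either strand.
Ncapg2, chr12:116405186-116405485, plus strand: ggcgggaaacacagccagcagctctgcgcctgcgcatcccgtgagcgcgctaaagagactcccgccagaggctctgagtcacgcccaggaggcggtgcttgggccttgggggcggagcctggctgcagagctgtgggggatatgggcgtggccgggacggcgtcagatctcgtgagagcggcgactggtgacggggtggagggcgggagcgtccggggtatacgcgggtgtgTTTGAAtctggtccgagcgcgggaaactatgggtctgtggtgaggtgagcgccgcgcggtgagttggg
Top2a, chr11:99024140-99024439, minus strand: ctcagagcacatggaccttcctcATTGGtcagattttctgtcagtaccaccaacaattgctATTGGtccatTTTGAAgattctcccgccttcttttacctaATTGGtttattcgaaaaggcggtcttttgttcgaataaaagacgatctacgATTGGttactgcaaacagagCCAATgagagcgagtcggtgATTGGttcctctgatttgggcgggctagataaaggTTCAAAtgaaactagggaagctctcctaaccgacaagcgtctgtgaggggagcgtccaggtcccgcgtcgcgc
Cdk1, chr10:69352863-69353162, minus strand: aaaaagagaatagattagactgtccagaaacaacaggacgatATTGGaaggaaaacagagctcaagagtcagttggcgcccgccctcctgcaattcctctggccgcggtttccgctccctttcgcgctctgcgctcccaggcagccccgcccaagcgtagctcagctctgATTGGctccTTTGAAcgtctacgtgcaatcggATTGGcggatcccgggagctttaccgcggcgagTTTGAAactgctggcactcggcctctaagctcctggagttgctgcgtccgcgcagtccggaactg
Plk1, chr7:122159185-122159484, plus strand: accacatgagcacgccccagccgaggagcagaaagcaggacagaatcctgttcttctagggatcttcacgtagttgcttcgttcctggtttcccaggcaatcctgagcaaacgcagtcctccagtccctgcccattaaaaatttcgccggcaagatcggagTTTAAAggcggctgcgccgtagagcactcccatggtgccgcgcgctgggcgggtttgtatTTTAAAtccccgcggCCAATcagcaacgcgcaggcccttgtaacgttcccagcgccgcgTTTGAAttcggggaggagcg
Melk, chr4:44300667-44300966, plus strand: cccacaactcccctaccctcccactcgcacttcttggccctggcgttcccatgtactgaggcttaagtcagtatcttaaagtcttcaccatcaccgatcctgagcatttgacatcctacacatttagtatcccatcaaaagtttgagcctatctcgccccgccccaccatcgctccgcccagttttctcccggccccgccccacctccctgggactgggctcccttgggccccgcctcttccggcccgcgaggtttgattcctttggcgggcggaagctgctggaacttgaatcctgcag

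Searching both strands, TTTGAA was in 27 of the 35 member windows (77.1%) and in 17.9% of all 32851 mouse windows of that length. Between 60 bases before and 50 after the start the shares were 71.4% and 5.50%. In the Ncapg2 window the only marked motif begins 18 bases before the start, while Top2a has a TTTGAA beginning 23 bases before the start on the opposite strand and Cdk1 one beginning 15 bases before it. CCAAT was in 71.4% of the member windows against 37.4% of all windows, and 45.7% against 11.7% held 2 or more; Top2a has 6. Both TTTGAA and CCAAT were in 62.9% of the member windows and in 6.95% of all. The rarer TTTAAA was in 22.9% against 13.2%, with 2 copies in the Plk1 window. The E2F letters TTTCGC were in 8.57% against 4.01%, and TTTGGC in 14.3% against 12.9%. TTTGAA and TTTAAA cannot share a position, and no motif was searched beyond its exact letters. These are matches of letters, not measured binding, and the listed genes were not chosen by sequence.

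The median log2 level per array was 8.25 to 8.34, since the deposited normalization gives all arrays 1 distribution. The gene of BLT1, Ltb4r1, lay between 7.22 and 7.63 on all 16 arrays and did not separate the genotypes (-0.19 ± 0.08 at day 2, limma adjusted p = 0.522), and with the deleted part of the gene unknown here the genotype labels are unchecked. Y-linked Eif2s3y was at 10.09 and Xist at 6.61 in 1 BLT1+/+KRasLA1 CS lung (lung 2). Eif2s3y was at 9.68 and 9.04 in the 2 day 60 pools and between 4.27 and 4.74 on the other 13 arrays, so that the day 60 pools carried Y-linked mRNA at a level that 5 of the 6 day 60 CS lungs did not; its part in the day 60 results was not tested. The alveolar type 2 markers had a summed log2 level of 15.63 to 15.82 on all arrays.

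**Figure D1:**
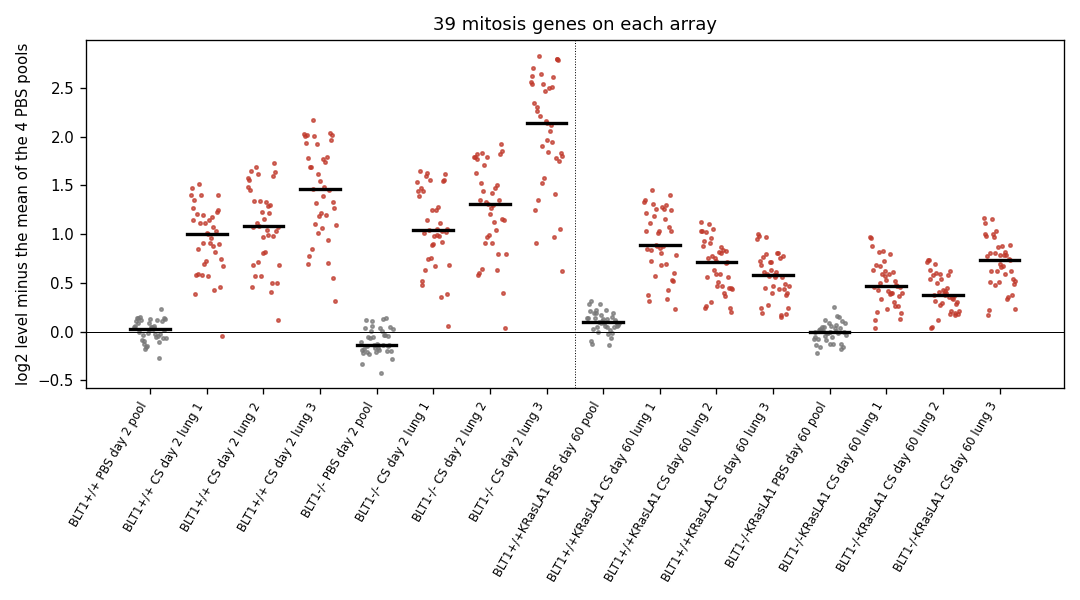
Log2 level of each of the 39 genes on each of the 16 arrays, minus that gene's mean over the 4 PBS pools; points are genes, black bars are medians, grey is PBS and red is CS, and the dotted line parts day 2 from day 60. Medians run from 1.00 to 2.14 in the day 2 CS lungs, from 0.38 to 0.89 in the day 60 CS lungs and from -0.13 to 0.10 in the pools.

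The first comparison asks how the lung responds to silica at day 2. Relative to the mean of the 4 pools, the median of the 39 genes was 1.00, 1.09 and 1.46 in the BLT1+/+ lungs and 1.04, 1.31 and 2.14 in the BLT1-/- lungs. Averaged over both BLT1 genotypes, 38 of 39 genes rose, where 8.03% of all genes tested did, and 0 fell (4.37% of all genes). The response, which is CS minus PBS on the log2 scale, ranged from 0.26 to 2.07 with a median of 1.34, and the median over all genes was -0.02. For 38 genes, all but Smc4, the 6 CS lungs lay above both day 2 pools, a pattern that 12.1% of all genes showed. Every adjusted p below is from limma with Benjamini-Hochberg adjustment over all 19938 genes, and a gene is said to rise or fall where it is under 0.05. The controls are 2 pools. With 1 pool left out, the genotype whose pool is kept alone carries the contrast. The median response was then that of the single genotype, 1.18 in BLT1+/+ lungs and 1.55 in BLT1-/- lungs. The counts within each genotype, which differ widely, are given below.

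All 11 measured cyclins and mitotic kinases rose at day 2, with a median of 1.30. Cyclin A2 (Ccna2), which pairs with CDK2 and CDK1 from S phase into mitosis, had the largest response of the set. It was at 8.74 in the BLT1+/+ pool against 10.30, 10.48 and 10.95 in the 3 CS lungs, and at 8.55 in the BLT1-/- pool against 10.38, 10.62 and 11.61. No CS lung came near a pool, and the mean response was 2.07 ± 0.26 (SE), or 4.21-fold (adjusted p = 0.000459). Cdk1, the kinase that drives entry into mitosis, was at 8.61 and then 10.12, 10.33 and 10.71 in BLT1+/+ lungs, and at 8.72 and then 10.34, 10.42 and 11.36 in BLT1-/- lungs, pools given first. Its response was 1.88 ± 0.25 (adjusted p = 0.00053).

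Polo-like kinase 1 (Plk1), which acts in centrosome maturation and cytokinesis, was at 7.98 against 9.32, 9.47 and 10.05 in BLT1+/+ lungs and at 8.08 against 9.68, 9.92 and 10.67 in BLT1-/- lungs. The groups did not overlap, and the response was 1.82 ± 0.24 (adjusted p = 0.000545). Melk, a kinase of proliferating cells, was at 7.45 against 8.42, 8.55 and 8.85, and at 7.38 against 8.54, 8.68 and 9.28. Its response of 1.30 ± 0.16 (adjusted p = 0.000412) was smaller than that of Plk1 but had a smaller error. Ccnb2 rose by 1.51, the checkpoint kinases Bub1 and Bub1b by 1.46 and 0.85, the checkpoint kinase Ttk by 1.17, and Aurkb and Aurka, which correct attachments and build spindle poles, by 1.30 and 0.99. Nek2, which parts the centrosomes, rose least of these, by 0.52 ± 0.16 (adjusted p = 0.0495), and it missed the threshold in 9 of the alternative settings run, 3 of which left out 1 BLT1+/+ lung each.

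Of 7 genes of condensin and chromosome structure 6 rose, with a median of 1.77 and a range from 0.26 to 1.88. Ncapg2, a subunit of condensin II, had the smallest p of the set. It was at 7.63 in the BLT1+/+ pool against 8.89, 9.19 and 9.32 in CS lungs, and at 7.36 in the BLT1-/- pool against 9.01, 9.31 and 9.89, a response of 1.77 ± 0.18 (adjusted p = 0.000142). Every CS lung was more than 1 log2 unit above its pool. Ncapg, its condensin I counterpart, was at 7.35 against 8.48, 8.67 and 9.23 and at 7.0 against 8.86, 9.04 and 9.92 (1.86 ± 0.24, adjusted p = 0.000488).

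Topoisomerase II alpha (Top2a), which untangles sister chromatids, was at 8.48 against 9.90, 10.00 and 10.43 in BLT1+/+ lungs and at 8.24 against 9.87, 10.22 and 10.97 in BLT1-/- lungs. The response was 1.88 ± 0.22 (adjusted p = 0.000298). A second Top2a probe set, between 5.35 and 6.71 on all arrays, had the lower mean and was not used. Mki67, the gene of the proliferation marker Ki-67 that coats mitotic chromosomes, was at 9.07 against 10.43, 10.51 and 11.05 and at 8.92 against 10.56, 10.82 and 11.59 (1.84 ± 0.23, adjusted p = 0.000404). In Mki67, as in the other 9 of the 10 genes with the smallest p at day 2, lung 3 of each genotype was the highest.

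The core condensin subunits differed from one another. Smc2 rose by 1.22 ± 0.18 and Ncaph by 0.55 ± 0.16 (adjusted p = 0.0356). Smc4, the partner of Smc2 in both condensins, was at 10.75 in the BLT1+/+ pool against 10.58, 10.74 and 10.94, and at 10.35 in the BLT1-/- pool against 10.69, 10.66 and 11.25. Only 4 of its 6 CS lungs were above their own pool, against 6 of 6 for every other member. Its response was 0.26 ± 0.13 (adjusted p = 0.234). In BLT1+/+ lungs alone the response of Smc4 was 0.002. With the day 2 lung number as a block, an alternative chosen after seeing the data, Smc4 passed (limma adjusted p = 0.0207) and 39 of 39 genes were called. That fit is not separate evidence for Smc4.

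All 6 kinetochore genes rose, with a median of 1.38. Nuf2, Spc25, Spc24 and Ndc80 encode the 4 subunits of the NDC80 complex, which holds the microtubule end. Nuf2 rose by 1.58 and Spc25 by 1.54, while Ndc80 and Spc24 rose by 0.63 each. The motor Cenpe rose by 1.54 and the large outer kinetochore protein Cenpf by 1.22.

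All 7 genes of spindle and motors rose, between 0.98 and 1.83. Kif11, the motor that pushes spindle poles apart, was at 8.03 against 9.07, 9.48 and 9.86 in BLT1+/+ lungs and at 7.59 against 9.32, 9.56 and 10.55 in BLT1-/- lungs (1.83 ± 0.25, adjusted p = 0.000781). The span between lungs 1 and 3 was wider in BLT1-/- mice. Tpx2, which activates Aurora A on the spindle, rose by 1.59, the microtubule bundler Nusap1 by 1.47, the chromokinesin Kif4 by 1.31, the microtubule depolymerase Kif2c by 1.30, the motor Kif15 by 1.04 and the spindle pole protein Aspm by 0.98.

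All 6 cytokinesis genes rose, with a median of 1.74. Anln, a scaffold of the contractile ring, was at 8.39 against 9.67, 9.91 and 10.29 in BLT1+/+ lungs and at 8.23 against 9.90, 10.13 and 11.06 in BLT1-/- lungs (1.85 ± 0.25, adjusted p = 0.000717). Prc1, which bundles the central spindle, had the second largest response of the set, 1.95 ± 0.29. Ect2, which activates RhoA at the cleavage site, rose by 1.83, the midzone motors Kif20a and Kif23 by 1.65 and 1.25, and Birc5 (survivin) by 0.96. The 2 genes of mitotic exit rose as well, Ube2c by 1.34 and Cdc20 by 1.01, both of which work with the anaphase-promoting complex.

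**Figure D2:**
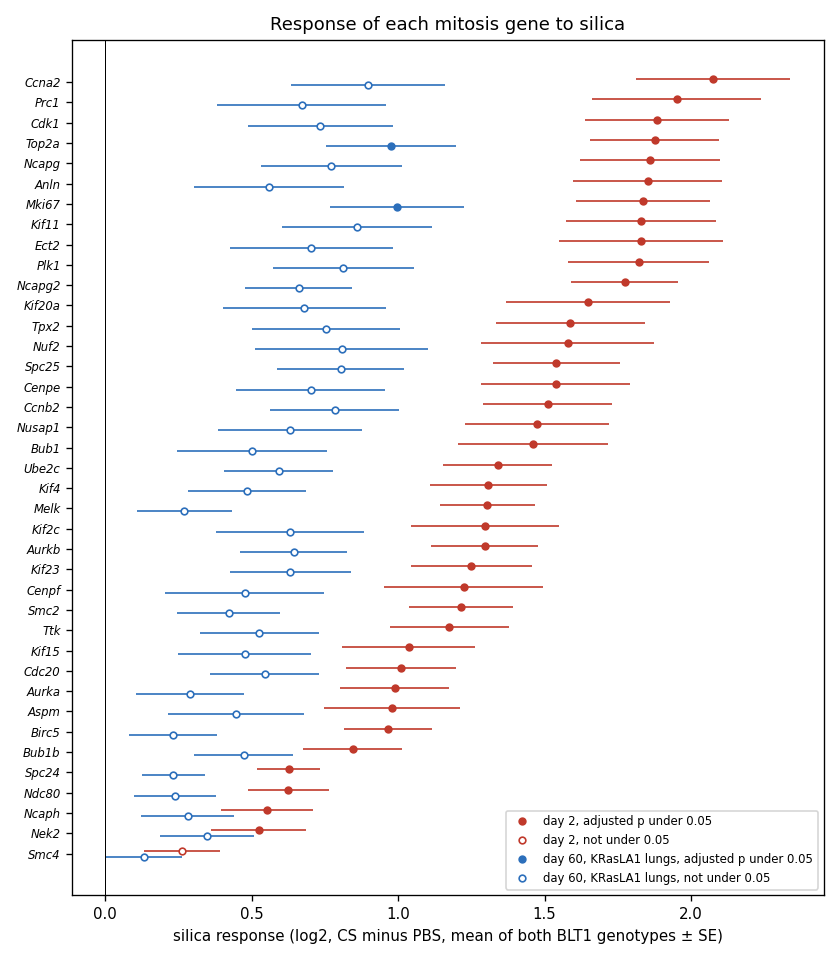
Silica response of each gene (log2, CS minus PBS, mean of both BLT1 genotypes, bars are standard errors) at day 2 in red and at day 60 in KRasLA1 lungs in blue, filled where the limma adjusted p is under 0.05. Filled points number 38 at day 2 and 2 at day 60, and each gene's blue point lies left of its red one.

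The same comparison within each BLT1 genotype has 1 pool as its control. In BLT1+/+ lungs 10 of 39 genes rose (0.853% of all genes) and 0 fell (0.311% of all genes). These were Ncapg2, Ube2c, Top2a, Cdk1, Melk, Mki67, Ccna2, Aurkb, Plk1 and Spc24. The median response was 1.18, and 36 members had an unadjusted p under 0.05 (2451 of 19938 genes). In BLT1-/- lungs 34 rose (5.19% of all genes) and 0 fell (1.4% of all genes), with a median of 1.55, and the 5 that did not pass were Ndc80, Ncaph, Aspm, Smc4 and Nek2. The BLT1+/+ count changed with single lungs: 32 genes passed without BLT1-/- lung 3, 21 without BLT1+/+ lung 1, and 0 without BLT1+/+ lung 2 or lung 3. With the lung number as a block, since same-numbered day 2 lungs deviated together in these data, 33 genes rose in BLT1+/+ lungs and 38 in BLT1-/- lungs. Unless stated, counts from such other fits, here and below, are of members alone. The share of all genes in the same fit is not given, so a general gain or loss of calls cannot be told from one in the members.

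The 2 genotypes were then set against each other after silica, which asks whether levels in CS lungs differ with BLT1. The difference in response, with the pools subtracted, is the interaction given last in this paragraph. At day 2, 0 of 39 genes differed between BLT1-/- and BLT1+/+ CS lungs with limma (0.0201% of all genes did). An unadjusted p under 0.05 was found for 0 members (1735 of 19938 genes). The difference was positive in 38 members (10409 of 19938 genes), with a median of 0.31 and a largest value of 0.48 in Ncapg (95% interval -0.04 to 0.99). Its BLT1+/+ lungs at 8.48 to 9.23 overlapped its BLT1-/- lungs at 8.86 to 9.92, and for 0 of 39 genes were all BLT1-/- lungs above all BLT1+/+ lungs (6.31% of all genes), nor the reverse (6.13% of all genes). Within same-numbered pairs of day 2 lungs the BLT1-/- lung was the higher in all 3 pairs for 31 of 39 genes (79.5%), against 19.1% of all genes, and the lower in all 3 for 0 (15.1% of all genes). Ncapg was higher by 0.38, 0.37 and 0.69 and Mki67 by 0.13, 0.31 and 0.54 in pairs 1, 2 and 3. With the day 2 lung number as a block 24 members had an unadjusted p under 0.05 (2355 of 19938 genes). After adjustment with limma 0 members passed (21 of 19938 genes), the lowest adjusted p being 0.143 in Ncapg. The members move together from lung to lung, so their number is not a number of independent observations. The labels do not pair the lungs, and the pairing by number was taken from these same data. In both groups lung 3 was the highest and lung 1 the lowest for most members, so pairing by number is close to pairing by rank. The values by pair and with the block are therefore a description and give no separate evidence of a genotype difference. The BLT1 by silica interaction at day 2 had 0 calls with limma among the members and among all genes (0%). It had 0 members with an unadjusted p under 0.05 (896 of 19938 genes) and a median of 0.47. For Mki67 the interval of that interaction ran from -0.51 to 1.46, which includes differences nearly as large as the response itself.

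The lungs of 1 group differed in a coordinated way. Lung 3 was the highest of its group in 38 of 39 genes in BLT1+/+ CS lungs and in 39 of 39 in BLT1-/- CS lungs, and lung 1 was the lowest in 32 and 36. Lung 3 exceeded the mean of its 2 companions by a median of 0.45 in BLT1+/+ lungs and 0.92 in BLT1-/- lungs. The median SD of the members was 0.26 and 0.54 in these groups, against 0.12 and 0.09 for all genes. With both lungs numbered 3 left out, 27 genes rose in BLT1+/+ lungs and 35 in BLT1-/- lungs.

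Markers of other cell types differed at day 2 as well. B cell markers were lower in 3 of 3 genes (median -1.55), with a summed log2 level of 12.33 to 12.51 in the pools and 10.84 to 11.60 in the CS lungs, lung 3 being the lowest in both genotypes. NK cell markers were lower in 4 of 4 genes, with sums of 11.29 to 11.44 in pools and 9.94 to 10.56 in CS lungs, again lowest in lung 3. T cell markers were lower in 4 of 5. Heart muscle markers were lower in 1 of 4 (Actc1), with sums of 13.53 to 13.61 in pools and 12.33 to 13.20 in CS lungs. Among structural cells, club cell markers were lower in 2 of 3 genes, with sums of 15.39 to 15.48 in pools and 15.06 to 15.30 in CS lungs, and ciliated cell markers in 1 of 3 (11.53 to 11.75 against 11.09 to 11.56). Of 4 endothelial markers 0 passed with limma (3 at an unadjusted p under 0.05), with sums of 14.90 to 14.99 in pools and 14.52 to 14.84 in CS lungs. In all of these 3 lists lung 3 was the lowest of its group in both genotypes. The part of these lists in the mitosis result was not tested. Among types that divide or circulate, 0 of 5 neutrophil markers and 0 of 2 erythroid markers passed in either direction with limma (0 of either at an unadjusted p under 0.05), and 1 of 5 thymocyte markers (Cd1d1) was lower, with thymocyte sums of 9.41 to 10.06 on all 16 arrays. Neutrophil sums were 13.46 and 14.07 in the day 2 pools, BLT1+/+ given first, against 13.26 to 14.17 in the day 2 CS lungs. The day 60 pools were lower, at 11.53 and 11.05 in the same order. The neutrophil test at day 2 was thus made against pools whose sums lay within the range of the CS lungs of both genotypes together. By genotype, the BLT1+/+ pool lay within its own CS lungs (13.31 to 14.17), and the BLT1-/- pool lay above all of its own (13.26 to 13.94). Why the pools differed between the days was not tested. Of 3 measured alveolar macrophage markers, 1 was higher.

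**Figure D3:**
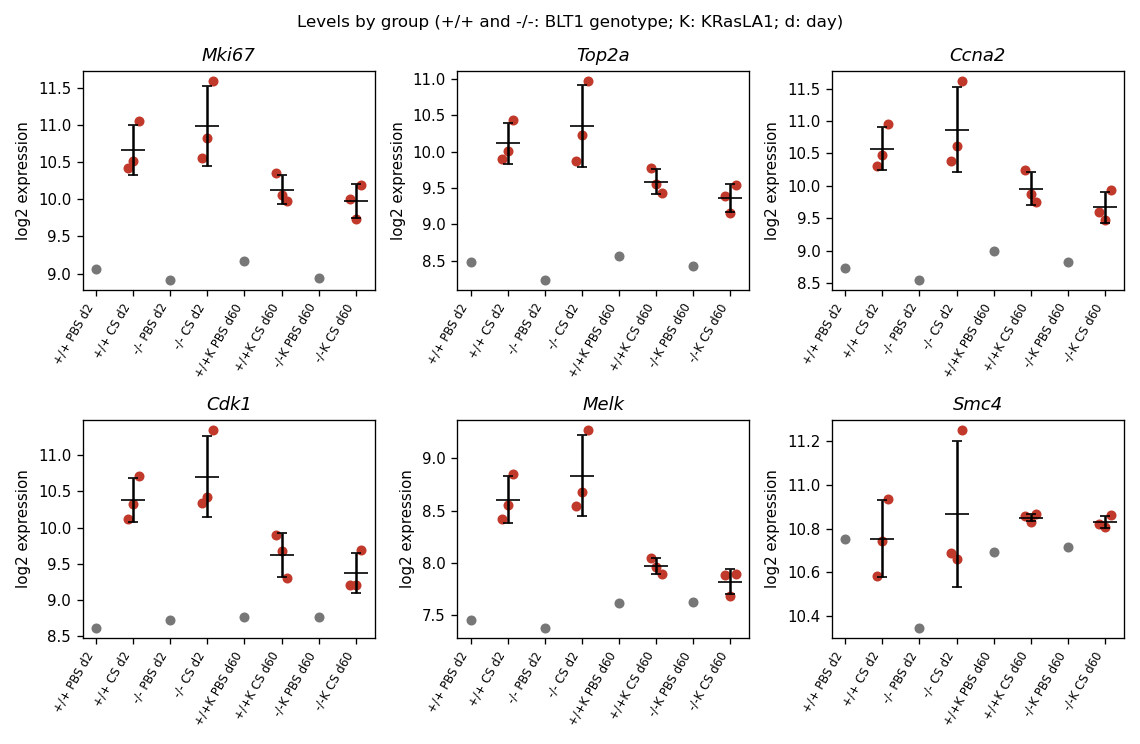
Log2 level of 6 genes by group; points are arrays (1 pool per PBS group in grey, 3 lungs per CS group in red), and black marks are the CS mean ± SD. Mki67, Top2a, Ccna2 and Cdk1 stand apart from the pools in all CS groups, Melk does so mainly at day 2, and Smc4 stays within 10.35 to 11.25 on all arrays.

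At day 60 the same question was put to lungs with KRasLA1. Relative to the mean of the 4 pools, the member median was 0.89, 0.71 and 0.58 in BLT1+/+KRasLA1 CS lungs and 0.46, 0.38 and 0.74 in BLT1-/-KRasLA1 CS lungs. In the mean over BLT1 genotypes 2 of 39 genes rose (3.35% of all genes) and 0 fell (0.677% of all genes). The count was 18 with array weights, 21 with the day 60 arrays fitted alone and 22 with the lung number as a block, though the day 60 numbers did not pair the lungs. All 39 responses were above 0 (8030 of 19938 genes), from 0.13 to 1.00 with a median of 0.63. Of these, 29 had an unadjusted p under 0.05 (2804 of 19938 genes). All 6 CS lungs were above their own pool for each of the 39 genes, a pattern whose share over all genes was not counted. They were above both day 60 pools for 38 genes, all but Ndc80, as for 9.66% of all genes.

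Mki67 had the largest day 60 response. It was at 9.17 in the BLT1+/+KRasLA1 pool against 10.35, 10.06 and 9.98 in CS lungs, and at 8.94 in the BLT1-/-KRasLA1 pool against 10.00, 9.73 and 10.19, a response of 1.00 ± 0.23 (adjusted p = 0.0247). Top2a was at 8.57 against 9.78, 9.55 and 9.43, and at 8.43 against 9.39, 9.16 and 9.54 (0.98 ± 0.22, adjusted p = 0.0235). In both genes all 6 CS lungs were more than 0.7 log2 units above their pools. In the settings run neither passed without BLT1+/+KRasLA1 lung 1, without BLT1-/-KRasLA1 lung 3 or with either pool left out, and Top2a did not pass when its 2 probe sets were averaged (adjusted p = 0.388).

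The other leading genes of day 2 were above their pools at day 60 without passing. Ccna2 was at 9.0 against 10.24, 9.88 and 9.75, and at 8.83 against 9.60, 9.47 and 9.94 (0.90 ± 0.26, adjusted p = 0.0844). Plk1 was at 8.41 against 9.38, 9.18 and 8.84, and at 8.04 against 8.96, 8.72 and 9.16 (0.81 ± 0.24). Kif11 was at 8.21 against 9.14, 8.96 and 8.90, and at 7.87 against 8.81, 8.66 and 8.93 (0.86 ± 0.25). In each of these the CS lungs of both genotypes lay above both pools.

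Cdk1, at 8.76 against 9.89, 9.67 and 9.30 and at 8.76 against 9.20, 9.21 and 9.68, had a response of 0.74 ± 0.25. Ncapg was at 7.43 against 8.24, 8.09 and 7.94 and at 7.08 against 7.85, 7.85 and 8.19 (0.77 ± 0.24). Anln, among the top 10 at day 2, had 0.56 ± 0.25, at 8.39 against 9.30, 8.84 and 8.77 and at 8.10 against 8.54, 8.47 and 8.90. In these 3 genes every day 60 CS lung was above both day 60 pools. Smc4 was again the smallest, at 10.70 against 10.86, 10.83 and 10.86 and at 10.72 against 10.82, 10.81 and 10.86 (0.13 ± 0.13).

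By role, the median day 60 response was 0.53 for cyclins and kinases, 0.59 for the kinetochore, 0.66 for condensin and chromosome structure, 0.63 for spindle and motors, 0.65 for cytokinesis and 0.57 for mitotic exit. Both genes that passed in the mean over genotypes, Mki67 and Top2a, are of chromosome structure. So few calls, where 3.35% of all genes rose, and such close medians do not set that role apart. Within single genotypes 0 of 39 genes passed with limma. In BLT1+/+KRasLA1 lungs 0.687% of all genes were higher and 0.0752% lower, and 15 members had an unadjusted p under 0.05 (1935 of 19938 genes). In BLT1-/-KRasLA1 lungs 1.1% were higher and 0.0702% lower, and 10 members had an unadjusted p under 0.05 (1761 of 19938 genes). The median responses were 0.64 and 0.54. Between the BLT1 genotypes after silica 0 of 39 differed with limma (0.0401% of all genes), and 0 had an unadjusted p under 0.05 (810 of 19938 genes). The difference was negative in 38 members (9242 of 19938 genes), with a median of -0.19 and a lowest of -0.43 in Prc1 (95% interval -1.05 to 0.19).

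For Ncaph, Bub1, Nusap1 and Melk the 3 BLT1+/+KRasLA1 lungs were all above the 3 BLT1-/-KRasLA1 lungs, 4 of 39 genes where 5.92% of all genes did so, and 0 members showed the reverse (4.58% of all genes). The interaction at day 60 had 0 calls with limma (0% of all genes). It had 0 members with an unadjusted p under 0.05 (396 of 19938 genes) and a median of -0.06. The lungs moved together here too, with lung 1 the highest in 35 of 39 genes in BLT1+/+KRasLA1 and lung 3 the highest in 36 in BLT1-/-KRasLA1, but the median SD was 0.18 in both groups. At this day 2 of 5 neutrophil, 3 of 5 T cell, 3 of 4 monocyte and macrophage, 2 of 4 plasma cell and 1 of 3 alveolar macrophage markers were higher, while 0 of 3 B cell markers passed with limma (3 at an unadjusted p under 0.05). Their part in the day 60 values was not tested.

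**Figure D4:**
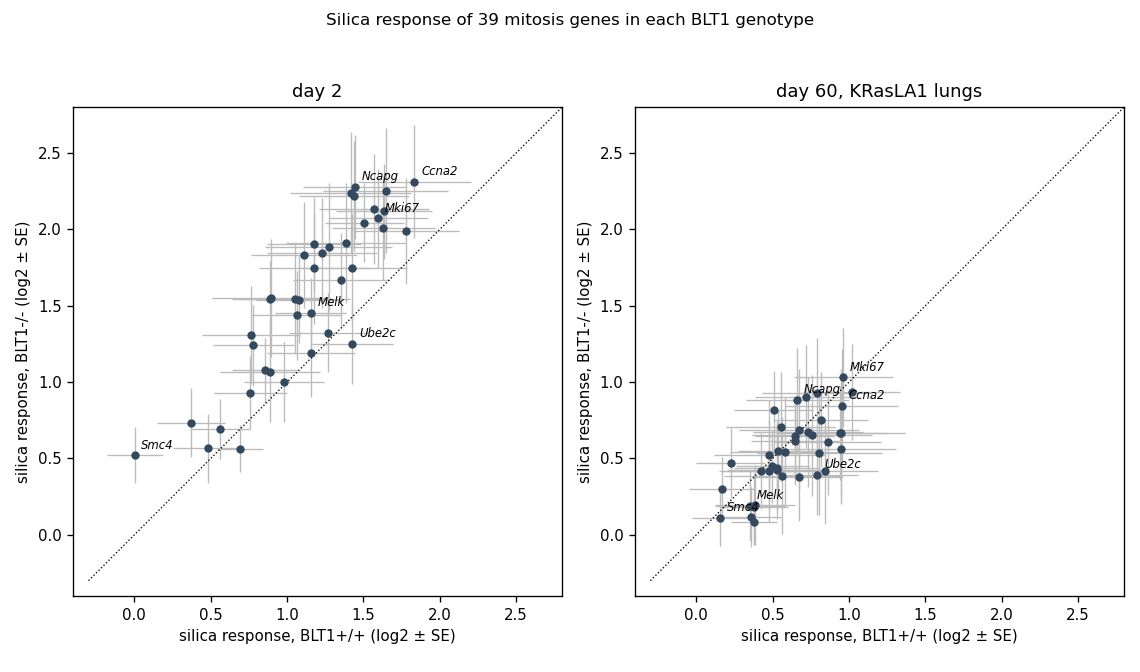
Silica response of each of the 39 genes in BLT1-/- lungs (vertical, log2 ± SE) against BLT1+/+ lungs (horizontal), at day 2 on the left and in KRasLA1 lungs at day 60 on the right; the dotted line marks equal responses. At day 2, 37 of the 39 lie above the line (8834 of 19938 genes would), and the median difference of all 39 along the vertical axis is 0.47. At day 60, 12 do (9409 of 19938 genes).

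The last comparison sets the days side by side. For all 39 members (10859 of 19938 genes) the day 60 response was smaller than the day 2 response. It was from 20.8% of the day 2 response in Melk to 66.3% in Nek2, with a median of 44.7%. Across the genes the responses of the days followed each other (r = 0.86, rho = 0.86, over 39 genes measured on the same arrays, a description). The difference between the responses was tested directly. Ncapg2 (-1.11 ± 0.26, adjusted p = 0.0405) and Melk (-1.03 ± 0.23, adjusted p = 0.0331) had a smaller response at day 60, 2 of 39 genes where 0.657% of all genes did, and 0 a larger one (1.7% of all genes). Among the members 27 had an unadjusted p under 0.05 (2804 of 19938 genes), and the median difference was -0.77. With the day 2 lung numbers as a block 20 genes passed. Single lungs moved the count: 0 passed without BLT1+/+ day 2 lung 2, BLT1+/+KRasLA1 lung 1 or 2, or BLT1-/-KRasLA1 lung 2. Without lung 3 of BLT1+/+ at day 2, lung 2 of BLT1-/- at day 2, BLT1+/+KRasLA1 lung 3 or BLT1-/-KRasLA1 lung 1 or 3, 1 passed, and without BLT1-/- day 2 lung 1 or 3, 3 did.

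Ncapg2 at day 60 was at 7.86 against 8.39, 8.47 and 8.22 in BLT1+/+KRasLA1 lungs and at 7.32 against 8.0, 8.08 and 8.32 in BLT1-/-KRasLA1 lungs (0.66 ± 0.18). All 6 of its day 60 CS lungs were below all 6 of its day 2 CS lungs. Melk was at 7.62 against 8.05, 7.97 and 7.90 and at 7.63 against 7.88, 7.69 and 7.90 (0.27 ± 0.16). Its highest day 60 CS lung, at 8.05, was below its lowest day 2 CS lung, at 8.42. Birc5 and Aurka also kept a small share of their day 2 response, 24.0% and 29.4%, but their differences did not pass (-0.73 and -0.70).

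The CS lungs themselves were also compared, with 6 lungs on each side and no pool. Of 39 genes, 33 were lower at day 60 than at day 2 (13.8% of all genes) and 0 higher (12.2%), with a median of -0.72, led in size by Anln (-1.36 ± 0.18) and Ect2 (-1.21 ± 0.20). Not called were Bub1b, Cdc20, Kif15, Nusap1, Nek2 and Smc4. For 22 genes all day 2 CS lungs were above all day 60 CS lungs, as for 6.93% of all genes. Between the pools of the days 0 members differed with limma (0.396% of all genes), and 0 had an unadjusted p under 0.05 (2127 of 19938 genes). The median difference was 0.09, with a range from -0.17 to 0.39. Both day 60 pools were above both day 2 pools in 11 genes (19.3% of all genes) and below them in Ncaph only (17.6%). KRasLA1 pools at day 60 thus had no member that passed against pools without the allele at day 2, on 2 arrays a side.

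Other cell cycle genes show how far the day 2 rise extended beyond the members, and their counts are to be read against the 8.03% of all genes that rose and the 4.37% that fell. All 23 measured DNA replication genes rose (median 0.97). Those of smallest p were Uhrf1 (1.22 ± 0.12), which maintains DNA methylation at the fork, and Mcm3, Mcm2 and Mcm6 (0.97, 1.01 and 0.91) of the replicative helicase. Of 27 further kinetochore and centromere genes 20 rose (median 0.77), among them Cenpk (1.37), Kntc1 (1.27), the cohesin protector Sgo2a (1.69) and Oip5 (0.98). A list of 23 genes held the chromosomal passenger complex, cytokinesis and other proliferation genes, and 18 of them rose (median 1.13). Among these were the passenger subunit Cdca8 (1.09) and, of the other proliferation genes, the kinase Pbk (1.77), Prr11 (1.48) and Cks1b (1.40). Of 22 spindle and kinesin genes 16 rose (median 0.69), such as Hmmr (1.82), Spag5 (1.31), Tacc3 (0.95) and the tubulin Tubb5 (0.48), and 1 fell, Numa1 (-0.36).

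In 3 lists fewer of the genes passed. Of 15 centrosome genes 4 rose (median 0.16): Cep55 (1.76), Stil (1.25), the centriole kinase Plk4 (0.97) and Tubg1 (0.50). Of 20 spindle checkpoint and anaphase-promoting complex genes 4 rose (median 0.13): the checkpoint protein Mad2l1 (1.18), its remodeler Trip13 (0.87), the inhibitor Fbxo5 (0.94) and Ube2s (0.28). Of 18 cohesin, separase and condensin genes 4 rose (median 0.09): Esco2 (1.67), the cohesion factor Cdca5 (0.95), the condensin I subunit Ncapd2 (0.78) and separase, Espl1 (0.52). The securin gene Pttg1 fell by 0.24 on the log2 scale (adjusted p = 0.0483).

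Regulators that act before mitosis were counted in 4 lists. Of 19 kinases and phosphatases of G2/M entry 8 rose (median 0.22), among them the checkpoint kinases Chek1 (1.41) and Wee1 (0.52), Ccnf (1.04) and Nek6 (0.80). Of 22 proliferation transcription factors 11 rose (median 0.35), with E2f8 at 1.21, Foxm1, which drives G2/M genes, at 1.16, Myc at 0.99 and Mybl1 at 0.94, and 1 fell, Rbl2 (-0.33), a pocket protein of the DREAM complex. Of 12 G1 cyclins and CDKs 6 rose (median 0.20), above all Ccne2 (1.83) and Ccne1 (1.03), with Cdk2 at 0.42 and Cdk4 at 0.23. Of 15 CDK inhibitors and p53 brakes 2 rose, Cdkn3 (1.54) and Gadd45g (1.07), and 2 fell, Tob1 (-0.28) and Ccng2 (-0.36), with a median of 0.04. At day 60, where 3.35% of all genes rose, few of these genes passed: Gas2l3 (0.94), Nek6 (0.57), Uhrf1 (0.47), Btg1 (0.40) and Cdt1 (0.39). Kif20b and Cep55 stand in 2 lists each.

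**Figure D5:**
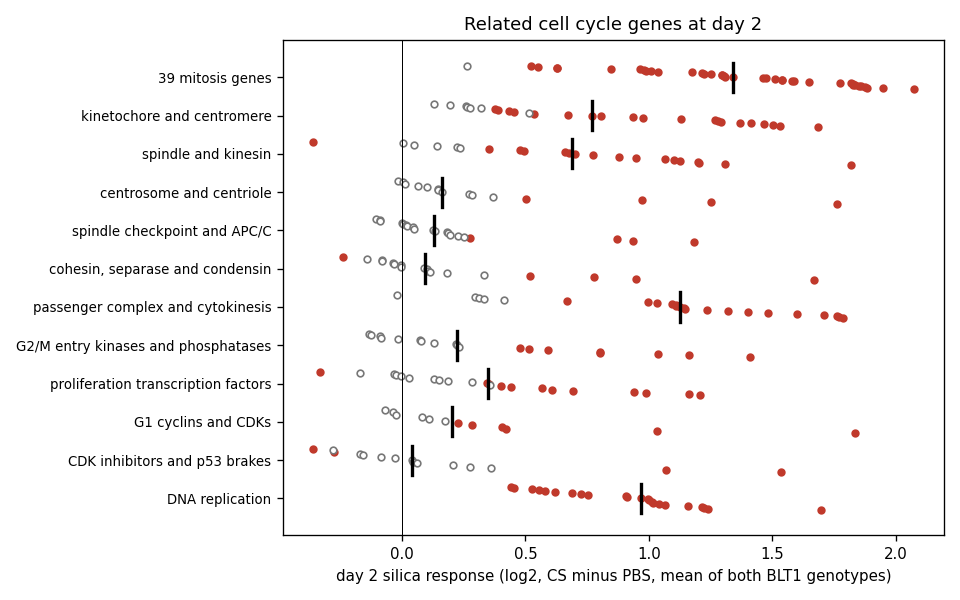
Day 2 silica response (log2, mean of both BLT1 genotypes) of the 39 genes and of 11 lists of other cell cycle genes; each point is a gene, red where the limma adjusted p is under 0.05 and open where not, and black bars are medians. Medians run from 0.04 for CDK inhibitors to 1.34 for the 39 genes.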

How the data were processed

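The authors deposited log2 expression values per probe set, for which the submitters' processing notes name Partek 6.6 and RMA, with no order of steps. RMA gives all arrays 1 distribution and draws dim probe sets to a floor, so their changes are understated. There were no detection calls, and the number of arrays limits the precision. Of 35556 probe sets, 21789 carried 1 symbol in the platform annotation, 1621 several and 12146 none.

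The 8 group means were fitted over 16 arrays using limma 3.58.1 (R 4.3.3; eBayes with trend; 8 residual and 5.4 prior degrees of freedom), two-sided, with Benjamini-Hochberg adjustment over 19938 genes in each of 13 contrasts. For a pool, which has no replicate, the spread of the CS lungs was used. Errors are standard errors unless called SD.

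The main fit had no pairing or block, and p-values are from it unless another fit is named. Only in the alternative fits with a block and in the comparison by pair were day 2 lungs paired by number, a choice taken from the data. The correlations of same-numbered lungs' deviations over genes were 0.43, 0.20 and 0.34, all above 0.1.

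The members, the other lists and the naming rule were chosen with earlier results of these data known. Array values are given for the 10 members of smallest p at day 2 and for Smc4, and each other list names up to 4 genes of smallest p at day 2 and those that passed at day 60. Numa1, Rbl2 and Pttg1 are named because they fell. A summed marker level is log2 of the summed linear levels.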

Additional observations from a re-analysis of the deposited data

Results flagged for a closer look

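Ncapg2 and Melk had a silica response that differed between day 2 lungs and day 60 KRasLA1 lungs in a test of the difference itself with limma. The difference, day 60 minus day 2, was -1.11 for Ncapg2 and -1.03 for Melk. Over 21 other settings it ranged from -1.21 to -0.95 for Ncapg2, which passed in 11 (adjusted p from 0.00363 to 0.0746), and from -1.11 to -0.86 for Melk, which passed in 16 (adjusted p from 0.00163 to 0.0591). Day and the KRasLA1 allele cannot be told apart in it.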

How the results depend on the processing

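No member reversed its direction in any silica response where it was called, and 0 members fell in those responses, under any setting run. Calls between BLT1 genotypes, in the interactions and between pools were 0 under every setting. At day 2 the mean response had 36 to 38 rising genes without single lungs. With 1 pool left out, the genotype whose pool is kept alone carries the contrast, and the counts of the single genotypes follow. The 10 genes of BLT1+/+ lungs became 5 without the variance trend, 17 with array weights, 0 with arrays of 1 day only, 32 with both pools as control and 27 with both lungs numbered 3 left out (an alternative chosen after seeing the data), and 0 to 32 without single lungs. The 34 of BLT1-/- lungs became 20 with arrays of 1 day only and 32 to 37 without single lungs. At day 60 the 2 genes became 18 with array weights, 1 with the mean of all probe sets, 21 with arrays of 1 day only, 0 with either pool left out and 0 to 3 without single lungs. Single genotypes at day 60 had 0, against 2 with array weights or with both pools in BLT1+/+KRasLA1 lungs and, in BLT1-/-KRasLA1 lungs, 2 with array weights and 3 with arrays of 1 day only, and 0 without single lungs. The difference between days in response had 1 gene with cyclic loess or without the trend, 4 with both lungs numbered 3 left out and 0 to 3 without single lungs, and the CS lungs 29 to 36. These counts are of members alone, without the share of all genes under the same setting. The cause of these changes was not tested.

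The pairing check at day 60 gave correlations of 0.09, 0.01 and 0.06, so those lungs share only a number. With the replicate number as a block within each day, the counts were 33 in BLT1+/+ lungs at day 2, 22 in the day 60 mean, 3 and 4 in the BLT1+/+KRasLA1 and BLT1-/-KRasLA1 lungs, and 19 for the difference between days. With the block at day 2 only, chosen after seeing the data, they were 33 at day 2 and 20 for the difference. The mean response at day 2 had 39. The block changed no other count by over 1.5 times.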
